A study of Mus musculus with 24 samples.

Results

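Sites bound by MYT1L in mouse cortex at embryonic day E18.5 that share no base with a MYT1L site at birth (P0) numbered 1700 of the 14477 sites in the E18.5 list, 11.7% of it. They were chosen by that overlap alone, so their lack of a P0 site, and with it their width and their distance to the nearest P0 site, are descriptions and not findings. The 12777 other E18.5 sites, each of which shares at least 1 bp with a P0 site, serve as the comparison. The 4 lists of the study together hold 144257 sites, of which 40698 are P0 sites.

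Binding was assayed by CUT&RUN: an antibody tethers a nuclease to the chromatin that MYT1L occupies, and the fragments cut free are sequenced. The labels give C57BL/6J as the strain of all samples, whereas the methods of the study name C57BL/6N for the mutant line. The wild-type (WT) groups were cortex at E18.5 and prefrontal cortex at P0 and at 3 months of age (adult WT), and the last group was prefrontal cortex of 3-month-old mice heterozygous for a germline frameshift in an early exon of Myt1l (adult HET). The labels name cortex for E18.5, whereas the methods of the study name prefrontal cortex for every stage. If the labels hold, stage and dissected region cannot be told apart between E18.5 and P0. Each group had 3 MYT1L libraries and 3 libraries made with control IgG, 24 samples in all, and some adult libraries titled Myt2l or Myt3l count here as MYT1L, since the description of each points to the Myt1l list. Each list was merged over the libraries of its group and gives only the start and end of a site. There was therefore no replicate error, no height per site and no known depth, and intervals cover counting error over sites only. A p-value compares sites within the E18.5 list and not conditions, and neighbouring sites are not independent. By their labels, E18.5 and P0 libraries were sequenced in run 1 and adult libraries in run 2, so adult age and run cannot be told apart. The lists also differ in make-up. The adult WT list holds 32145 sites of median width 167 bp, and the adult HET list 56937 of median width 108 bp. Median width is 276 bp in the P0 list and 593 bp in the E18.5 list.

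MYT1L is a zinc finger factor that neurons express from their birth onwards. It acts mainly as a repressor, recruits SIN3 and histone deacetylases, and holds down Notch and Wnt signalling and genes of other lineages while neurons differentiate. The core of its DNA motif is AAAGTT. The cortex just before birth still holds some dividing progenitors beside its newborn neurons.

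The sequences below show what DNA these sites hold, in mm10 (GRCm38), with lower-case bases on the plus strand and each copy of AAAGTT, or of its reverse complement AACTTT, in capitals. The first, in the coding exon of Skida1, comes from the sites named below by width or by bases per gene. Sites of gene list members were not searched for this. It is the only one of those searched that holds AAAGTT within 75 bp of its midpoint and lies outside a UTR. The other 5 are 100-base stretches with the most copies, outside UTRs, and were picked after the values were seen. They come from the sites with 10 and 5 copies along their whole length, the most of any, and from the 3 widest of the 10 sites with 4 copies.
Skida1 coding exon: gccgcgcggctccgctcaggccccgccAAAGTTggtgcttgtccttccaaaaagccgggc
Hist1h4h locus: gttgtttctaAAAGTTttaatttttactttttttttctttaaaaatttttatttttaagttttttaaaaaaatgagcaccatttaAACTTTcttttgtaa
Pdia4 promoter: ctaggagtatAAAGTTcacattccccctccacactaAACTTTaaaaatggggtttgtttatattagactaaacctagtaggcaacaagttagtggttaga
Ccnh locus: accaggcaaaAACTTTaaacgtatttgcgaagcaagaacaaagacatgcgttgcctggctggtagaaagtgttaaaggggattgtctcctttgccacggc
Nfatc3 intron: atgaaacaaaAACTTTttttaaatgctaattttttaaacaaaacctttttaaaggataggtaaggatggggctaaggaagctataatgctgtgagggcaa
Hbp1 promoter: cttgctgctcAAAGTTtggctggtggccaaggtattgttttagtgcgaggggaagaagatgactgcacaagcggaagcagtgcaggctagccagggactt
They lie at chr2:18047898-18047957, chr13:23516627-23516726, chr6:47812462-47812561, chr13:84758134-84758233, chr8:106069554-106069653 and chr12:31950789-31950888. Along the whole site, the Hist1h4h locus held 10 copies, the Pdia4 promoter 5 and each of the last 3 sites 4. These 5 sites overlapped adult WT sites, but of the 10 sites with 4 copies only the 3 shown did. The Hist1h4h site overlapped the adult HET list too.

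A second set shows the GC-box GGGCGG, the word that differed most between sites without and with a P0 site, with the copies nearest the midpoint in capitals (CCGCCC is its reverse complement). It comes from 4 of the 5 sites, among those named by width or by bases per gene, that hold the word within 75 bp of the midpoint outside a UTR.
Arrdc3: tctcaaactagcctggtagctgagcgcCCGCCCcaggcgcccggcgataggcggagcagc
Per1: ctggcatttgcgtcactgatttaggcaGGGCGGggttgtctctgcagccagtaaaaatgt
Ppp2r3d: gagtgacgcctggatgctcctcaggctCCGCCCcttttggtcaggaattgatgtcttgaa
Pdia4 upstream: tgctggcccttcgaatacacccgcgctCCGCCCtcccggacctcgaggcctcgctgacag
They lie at chr13:80885546-80885605, chr11:69094941-69095000, chr9:124424985-124425044 and chr6:47758433-47758492. The first 3 are at promoters, and the last is intergenic, 54.9 kb from the start of Pdia4. Pdia4 is on the minus strand, so this last site lies past its 3' end, downstream of the gene. The word upstream in its label stands only for lower coordinates.

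Sites without a P0 site were mostly narrow to middling in width. Their median width was 548.5 bp (quartiles 413 and 723 bp, range 49 to 3754 bp), against 601 bp (443 and 839 bp) for the E18.5 sites with one, and they covered 1033 kb in all. With the E18.5 list cut by width into 10 classes of equal size, the share without a P0 site was 14.4% in the narrowest class (exact 95% interval 12.6 to 16.3%), still 12.9% at 593 to 670 bp and 5.80% (4.65 to 7.13%) in the widest class, over 1151 bp. A wider site has more bases that can meet a P0 site, so these shares follow in part from the rule itself.

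Many of the 1700 lay beside a P0 site and not far from all of them. The gap to the nearest P0 site was at most 100 bp for 106 sites and at most 1 kb for 423 (24.9%). The median gap was 9584 bp, and 79 sites (4.65%) were over 100 kb from any P0 site. Near the threshold of 1 shared base, 3 sites without a P0 site touched one end to end, including a Tcf4 intron site, and 13 lay within 10 bp. Just on the other side, the smallest overlaps were 2 bp (a Prkca intron site), 5 bp and 6 bp. The farthest was a 261-bp intergenic site nearest Klhl4 on chromosome X, 1047397 bp from a P0 site and made wholly of soft-masked repeat. The next was a 398-bp intergenic site nearest Lrrc3b, 602863 bp from one. The third was the Ppp2r1a promoter, 326205 bp from one, which was also among the 10 widest.

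**Figure D1:**
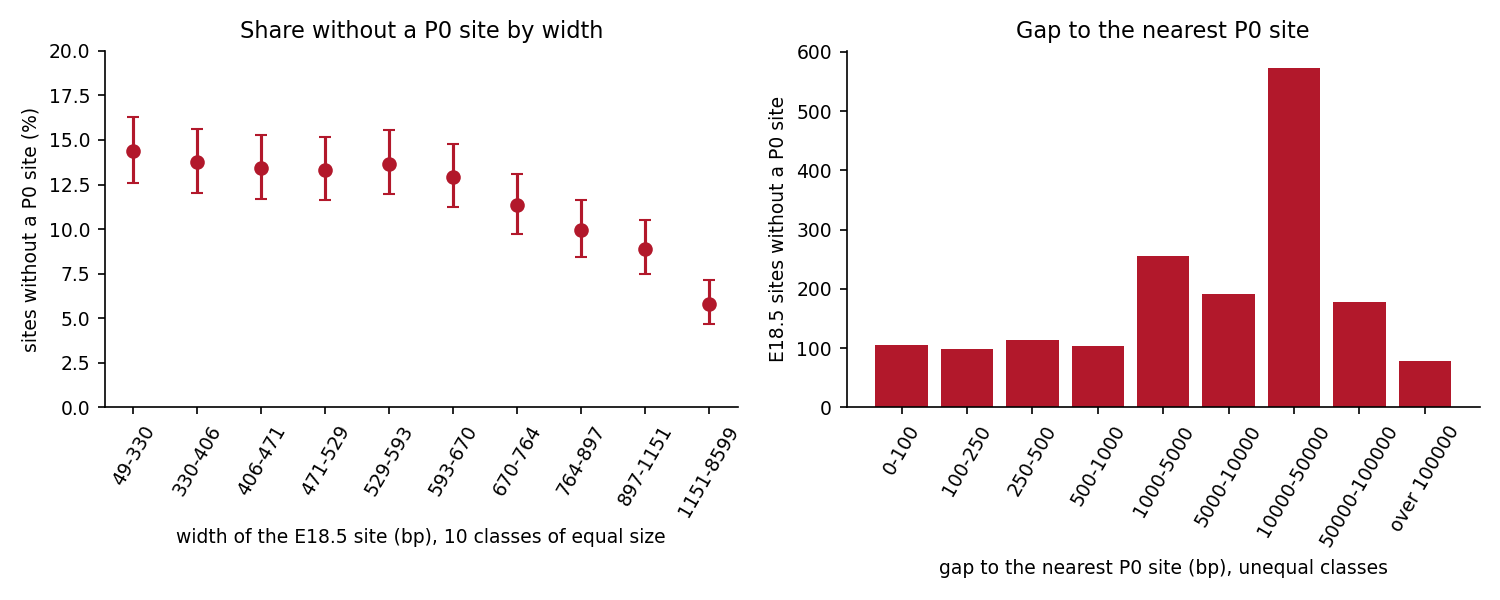
Left, share of E18.5 sites without a P0 site (%) in 10 classes of equal size by site width (bp), with exact 95% intervals; the share falls from 14.4% in the narrowest class to 5.80% in the widest. Right, number of E18.5 sites without a P0 site by gap to the nearest P0 site (bp) in classes of unequal size; 423 of 1700 have a gap of at most 1 kb and 79 of over 100 kb.

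By place in the genome these sites resembled the rest of the E18.5 list in most respects. Of the 1700, 605 (35.6%) lay at promoters (from 1 kb before a start of transcription to 100 bp after it), 510 (30.0%) in introns, 501 (29.5%) between genes and 84 (4.94%) in exons or at transcription ends. Promoters make up 2.54% of genome bases. Of the promoter sites, 570 (94.2%) were at starts of protein-coding genes. The share in introns was lower than among sites with a P0 site (33.7%, a difference of -3.73 percentage points, 95% interval -6.01 to -1.36, adjusted exact p = 0.015 by Fisher's exact test over 27 features), a call that was lost in 5 alternatives. The shares at promoters (34.2% among sites with a P0 site, difference 1.36 points, -1.03 to 3.80, adjusted exact p = 0.53) and between genes (26.9%, 2.56 points, 0.306 to 4.90, adjusted exact p = 0.11) did not pass the test. Of the 27 features, 4 were more frequent at the 1700 sites (14.8%) and 1, the share in introns, less frequent (3.7%).

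A CpG island, computed from sequence, was touched by 46.0% of the 1700 and 47.0% of the others (adjusted exact p = 0.68), and 1.29% against 0.830% were mostly repeat (adjusted exact p = 0.21). The direction for CpG islands depended on the setting, as their odds ratio was called at 0.718 with GC classes as strata and 0.778 over 1 kb from P0, but at 1.42 among sites wider than the list median. Median GC content was 46.2% against 45.3%. Across the autosomes, the share of E18.5 sites without a P0 site ran from 9.94% on chromosome 15 to 14.5% on chromosome 19, with overlapping intervals, and it was 10.9% on chromosome X (26 of 239 sites). On the Y chromosome 4 of 14 sites lacked one.

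Most sites without a P0 site stood alone among their E18.5 neighbours. In the order of the E18.5 list along the genome, 1309 of them had no neighbour without a P0 site, 159 pairs stood next to each other, and longer runs were 9 of 3 sites, 7 of 4, 1 of 5 and 1 of 13. Only 11.7% of E18.5 sites lacked a P0 site, so most of them standing alone follows largely from that share. Whether these sites cluster was not tested. The longest run, of 13 sites, spanned 98.2 kb at chr6:47652670-47750888, between Ezh2, a histone methyltransferase of the Polycomb complex, and Pdia4, a protein of the endoplasmic reticulum. All 13 were intergenic, 373 to 1046 bp wide and 4.40 to 78.1 kb from the nearest P0 site. Of them, 7 overlapped the adult WT list and none the adult HET list. A further run of 4 sites followed at chr6:47757791-47770117. Near Mycn, a proto-oncogene of dividing progenitors, 4 sites spread over 223.5 kb formed another run, and the 4 Arrdc3 sites described below lay within 3.2 kb.

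The AAAGTT motif was about as common at these sites as at other E18.5 sites. Within 75 bp of the midpoint, 244 of the 1700 (14.4%, exact 95% interval 12.7 to 16.1%) held AAAGTT on either strand, against 15.3% of sites with a P0 site (difference -0.987 points, -2.70 to 0.865, adjusted exact p = 0.54). Windows of the same length spaced evenly over the genome held it in 12.2%, or 9.06% when weighted to the GC content of the 1700. Of 32851 RefSeq promoters (250 bases before to 50 after the start, GRCm38.p6), 14.05% held it. That stretch is longer than the window used here, so its share cannot be set directly against the others. Over the whole length of a site the difference was larger. A copy was present in 38.2% of the 1700 and in 45.1% of the others (odds ratio 0.751, adjusted exact p = 4.9e-07), and copies per kb of site were 0.888 and 0.990. Sites with a P0 site were also wider, and the part of width in the first of these differences was not tested.

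Of 16 words of other factor families searched in the same window on both strands, 3 differed, all more frequent at sites without a P0 site. The GC-box GGGCGG of SP and KLF factors, printed above for 4 sites, was in 20.6% of them (351 sites) against 14.3% (odds ratio 1.56, difference 6.33 points, 4.38 to 8.41, adjusted exact p = 1.2e-09). It was in 1.48% of genome windows, or in 7.49% at the GC content of the 1700. The E-box CAGATG, a word bound by neurogenic basic helix-loop-helix factors such as NEUROG2 and NEUROD1, was in 16.6% against 13.4% (odds ratio 1.29, adjusted exact p = 0.0038; genome windows 11.5%). The CAGATG call was lost among sites wider than the list median (odds ratio 0.984), with P0 cover under 50% of the site (1.13) and at 1 site per 10 kb (1.22). The EGR word GTGGGC was in 9.71% against 7.73% (odds ratio 1.28, adjusted exact p = 0.031), and it lost the call in 5 alternatives, GC classes among them. The words GGGCGG and GTGGGC can share bases with each other, whereas CAGATG can overlap either by a single base at most.

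The NRF1 word TGCGCA (2.94% against 4.12%, odds ratio 0.706, adjusted exact p = 0.092) and the CRE word TGACGT (4.53% against 3.47%, adjusted exact p = 0.11) did not pass. TGCGCA did pass over 1 kb from P0 (odds ratio 0.580, adjusted exact p = 0.011), with P0 cover under 50% of the site (0.737, 0.049) and with GC classes as strata (0.628, adjusted Cochran-Mantel-Haenszel p = 0.0097). The nuclear factor I word TTGGCA, in 14.6% against 13.6%, was above its 7.51% of genome windows in both groups, with a difference of 1.09 points (-0.620 to 2.95, adjusted exact p = 0.48). The other words did not pass either, with differences between -1.12 and 0.657 points, though CCGGAA passed with GC classes as strata (odds ratio 0.738) and CTAGGG among sites wider than the list median (1.55). For neuronal factor families these were the POU word ATTTGC, the homeodomain word TAATTA and the SOX and TCF word ACAAAG. For factors of many tissues, the words were TGACTC of AP-1, CCGGAA of ETS factors, the E-box CACGTG of USF and MYC factors, and CTAGGG from the CTCF motif. As words outside these families, GATAAG of GATA factors and the TA-rich word TATATA were searched. A word found is a match of letters, not a bound site.

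**Figure D2:**
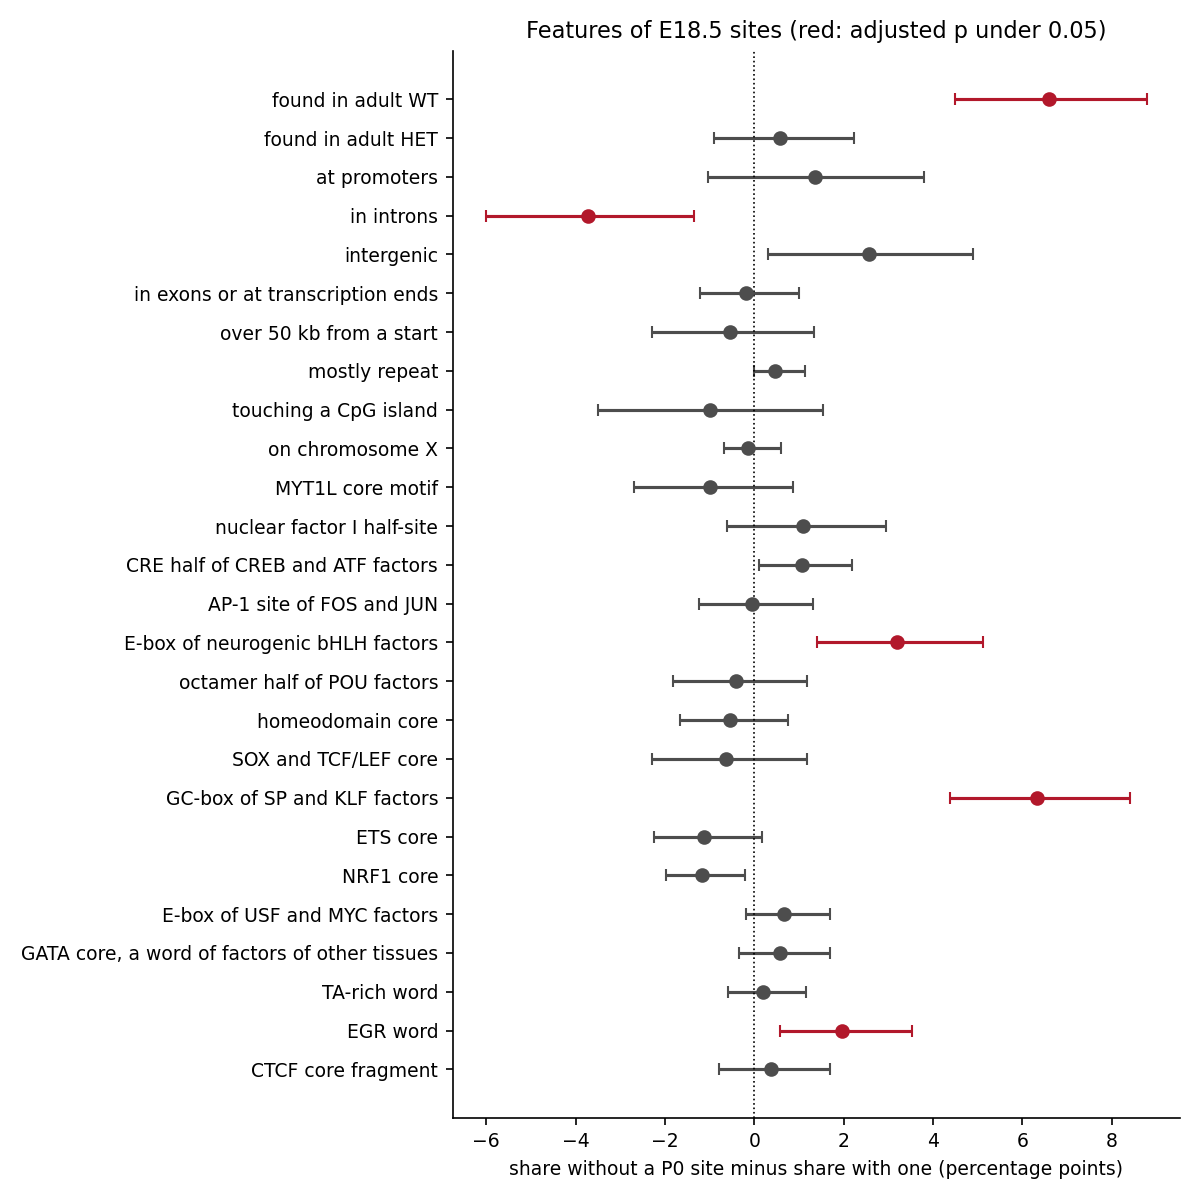
Difference in share (percentage points) between E18.5 sites without a P0 site and those with one for the features reported here, with 95% Newcombe intervals; red marks the 5 features with an adjusted p under 0.05. The shares found in adult WT (6.59 points) and with the GC-box (6.33 points) lie farthest to the right, and the share in introns (-3.73 points) farthest to the left.

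Sites missing at P0 were found in the adult WT list more often than those present at P0. Of the 1700 sites, 412 (24.2%, exact 95% interval 22.2 to 26.4%) overlapped an adult WT site, more than the 17.6% of E18.5 sites with a P0 site (difference 6.59 points, 4.51 to 8.79, odds ratio 1.49, adjusted exact p = 2.4e-09). The adult WT call held in all alternatives run. For the adult HET list the shares were 10.7% (182 sites) and 10.1% (difference 0.586 points, -0.896 to 2.23, adjusted exact p = 0.68). By pattern, 297 sites overlapped the adult WT list alone, 67 the adult HET list alone and 115 both, and 1221 (71.8%) overlapped neither. The adult HET list holds more and narrower sites than the adult WT list. Shares in the 2 adult lists therefore cannot be set against each other as a measure of binding.

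The higher adult WT overlap was found at promoters. At promoters, 263 of 605 sites without a P0 site (43.5%, 39.5 to 47.5%) had an adult WT site, against 24.9% of promoter sites with a P0 site (odds ratio 2.32, 95% interval 1.95 to 2.76). Away from promoters the shares were 13.6% and 13.9% (odds ratio 0.980, 0.815 to 1.18). Their odds ratios differed 2.37-fold (1.84 to 3.05, Woolf's chi-square test, p = 2.8e-11). For adult HET the split ran the same way, with 20.7% against 14.7% at promoters (odds ratio 1.52, 1.23 to 1.88) and 5.21% against 7.76% elsewhere (odds ratio 0.653, 0.494 to 0.862), and the odds ratios differed 2.32-fold (1.64 to 3.30, Woolf's chi-square test, p = 2.5e-06). This split was chosen after the data were seen, and its p-values are unadjusted. Promoter sites without a P0 site were wider (median 617 bp) than the other sites without one (510 bp).

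**Figure D3:**
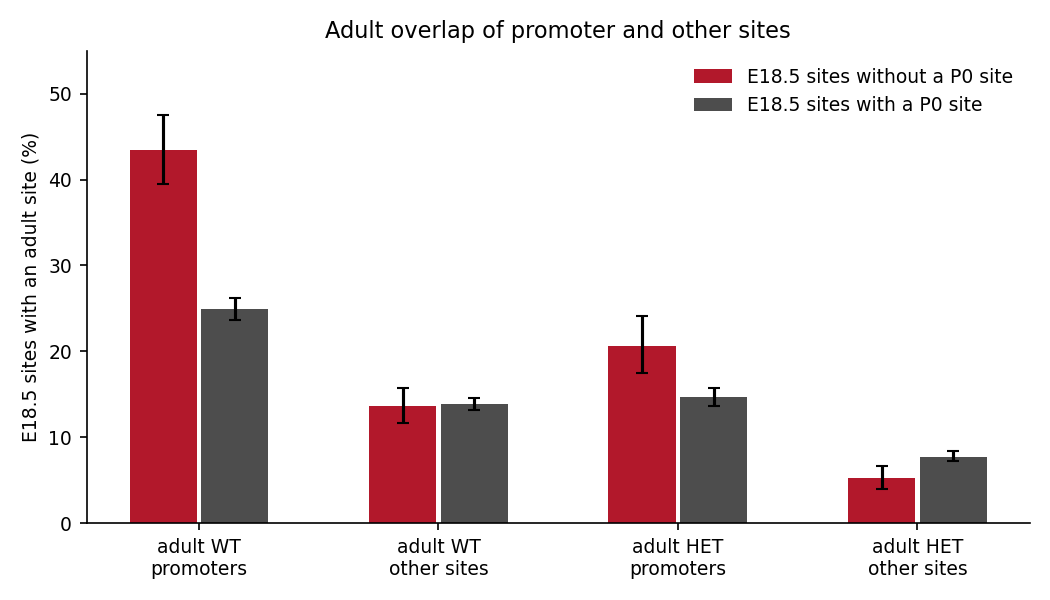
Share (%) of E18.5 sites that overlap the adult WT and adult HET lists, for promoter sites and other sites, without (red) and with (grey) a P0 site; error bars are exact 95% intervals. At promoters 43.5% of the sites without a P0 site and 24.9% of those with one overlap the adult WT list, while for other sites the bars are nearly level at 13.6% and 13.9%.

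Overlap with the adult lists rose with the width of the E18.5 site in both groups. In the narrowest of 5 width classes of equal size, 10.8% of sites without a P0 site (44 of 407) and 9.80% of those with one overlapped adult WT. In the widest, over 897 bp, the shares were 54.0% (115 of 213, 47.05 to 60.8%) and 29.9% (28.2 to 31.7%). For adult HET they were 4.67% and 5.34% in the narrowest class and 25.8% and 18.1% in the widest. Intervals of the 2 groups were apart in the 3 widest classes for adult WT and in the widest alone for adult HET.

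**Figure D4:**
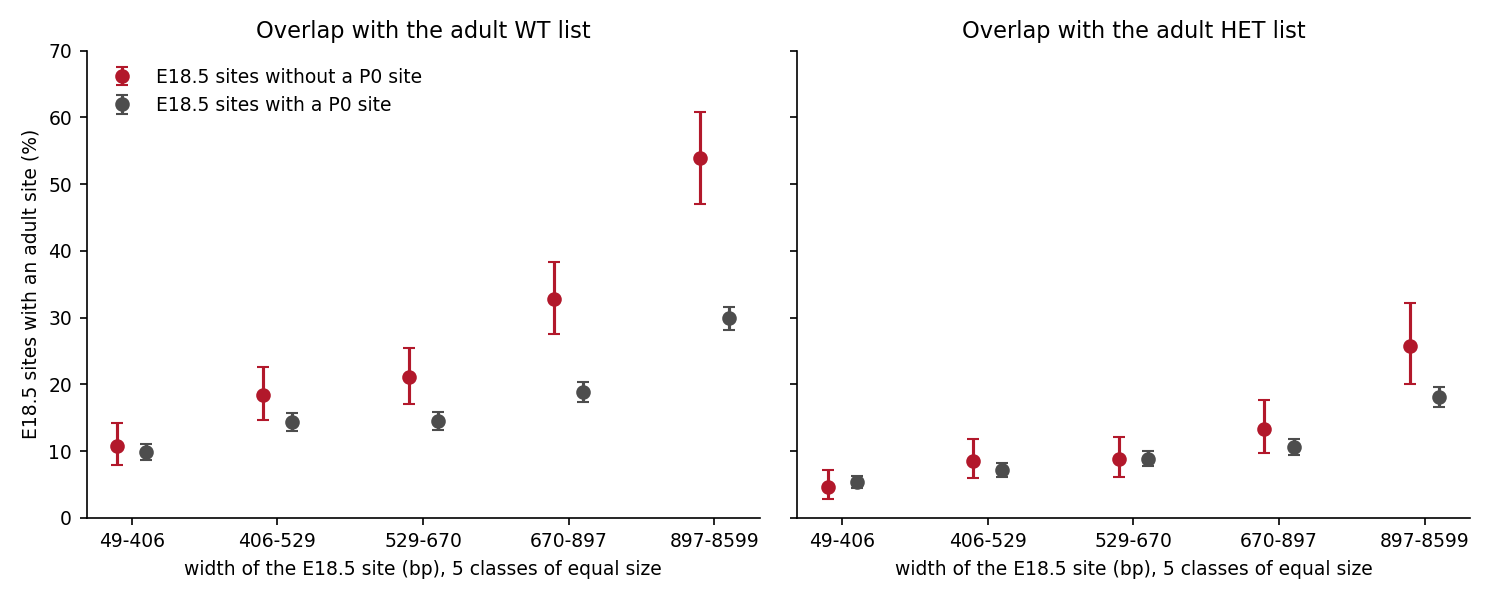
Share (%) of E18.5 sites that overlap the adult WT list (left) and the adult HET list (right) in 5 classes of site width (bp), for sites without (red) and with (grey) a P0 site; error bars are exact 95% intervals. The adult WT shares are 10.8% and 9.80% in the narrowest class and 54.0% and 29.9% in the widest.

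Sites without a P0 site lay within 5 kb of a transcription start of 900 of 21938 protein-coding genes, 4.1% of them and 13.7% of the 6587 genes with any E18.5 site in that range. Of these 900, 475 had a P0 site elsewhere within 5 kb of a start, 52.8% of them, and 202 of the 900 also had a further E18.5 site that met a P0 site. The other 425, or 1.94% of protein-coding genes, had none. Among those 425, 203 (47.8%) had an adult WT site within 5 kb, 154 an adult HET site, 95 both and 163 neither. An adult WT site was within reach of 20.1% of all protein-coding genes, and of 38.2% of genes that were targets at both E18.5 and P0. Such shares were not computed for the adult HET, both and neither counts, which therefore cannot be read as high or low.

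The genes with the most bases in such sites included several of neurons. Soga3 carried 1 site of 3136 bp over its promoter (chr10:29142693-29145828), while its only P0 site within 5 kb was 154 bp wide and lay 1078 bp away, and neither adult list overlapped the E18.5 site. Pou3f3, a POU factor of upper-layer neurons and progenitors, had a 2202-bp site over its start (chr1:42694619-42696820). It lay 429 bp from a P0 site, beside E18.5 sites of 3021 and 1598 bp that both met P0 sites, and an adult WT site of 304 bp lay inside it. Tubb2b, a beta-tubulin of migrating neurons, had a 2048-bp promoter site (chr13:34130057-34132104) in a gap between P0 sites 22 bp from the nearer, with no adult site in it. Elavl2, a neuronal RNA-binding protein, had 1 E18.5 site within 5 kb of its starts, 1969 bp wide, over a 5' UTR (chr4:91375146-91377114). It lay 4115 bp from the nearest P0 site, with an adult WT site of 423 bp inside it.

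Arrdc3, an arrestin-domain adaptor, stood out for 4 such sites of 426, 1027, 900 and 484 bp in a row, flanked by E18.5 sites of 468 and 1314 bp that did meet P0 sites. The gaps of the 4 to the nearest P0 site ran from 38 to 1074 bp. A 135-bp adult WT site lay inside the first and a 124-bp adult HET site inside the second. Skida1 had 2, of 1083 and 1168 bp, 505 and 527 bp from the nearest P0 site, with 9 P0 sites and no adult site within 5 kb of its starts.

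Among genes with no P0 site within 5 kb, the widest sites sat mostly on promoters. Casc1 and Etfrf1 share a 1956-bp site at their divergent starts (chr6:145210270-145212225), 22638 bp from a P0 site, which held adult WT sites of 115 and 174 bp. The Pdia4 promoter site (1946 bp, chr6:47812403-47814348), 14719 bp from a P0 site, held an adult WT site of 341 bp. The site at Ppp2r1a, the scaffold subunit of protein phosphatase 2A, was 1943 bp wide (chr17:20944012-20945954) and overlapped both adult lists, by 403 and 203 bp. Regulatory subunits of the same phosphatase were also among the 10. Ppp2r5a had a site of 1755 bp (chr1:191396597-191398351) that overlapped adult WT sites by 606 bp and an adult HET site by 270 bp, and Ppp2r3d had 2, of 759 and 1006 bp, 141283 and 142150 bp from the nearest P0 site. Hjurp, a chaperone of the centromeric histone, had a 1776-bp site (chr1:88276293-88278068) overlapped by 940 bp of adult WT and 215 bp of adult HET sites, and 11 adult WT sites lay within 5 kb of its starts. The others were Trim41 (1927 bp, adult HET sites within it but no adult WT site within 5 kb), Cep57l1 (1768 bp, at a start shared with Sesn1, no adult site in it) and Gm28047 (1691 bp, 1 adult WT site of 250 bp).

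**Figure D5:**
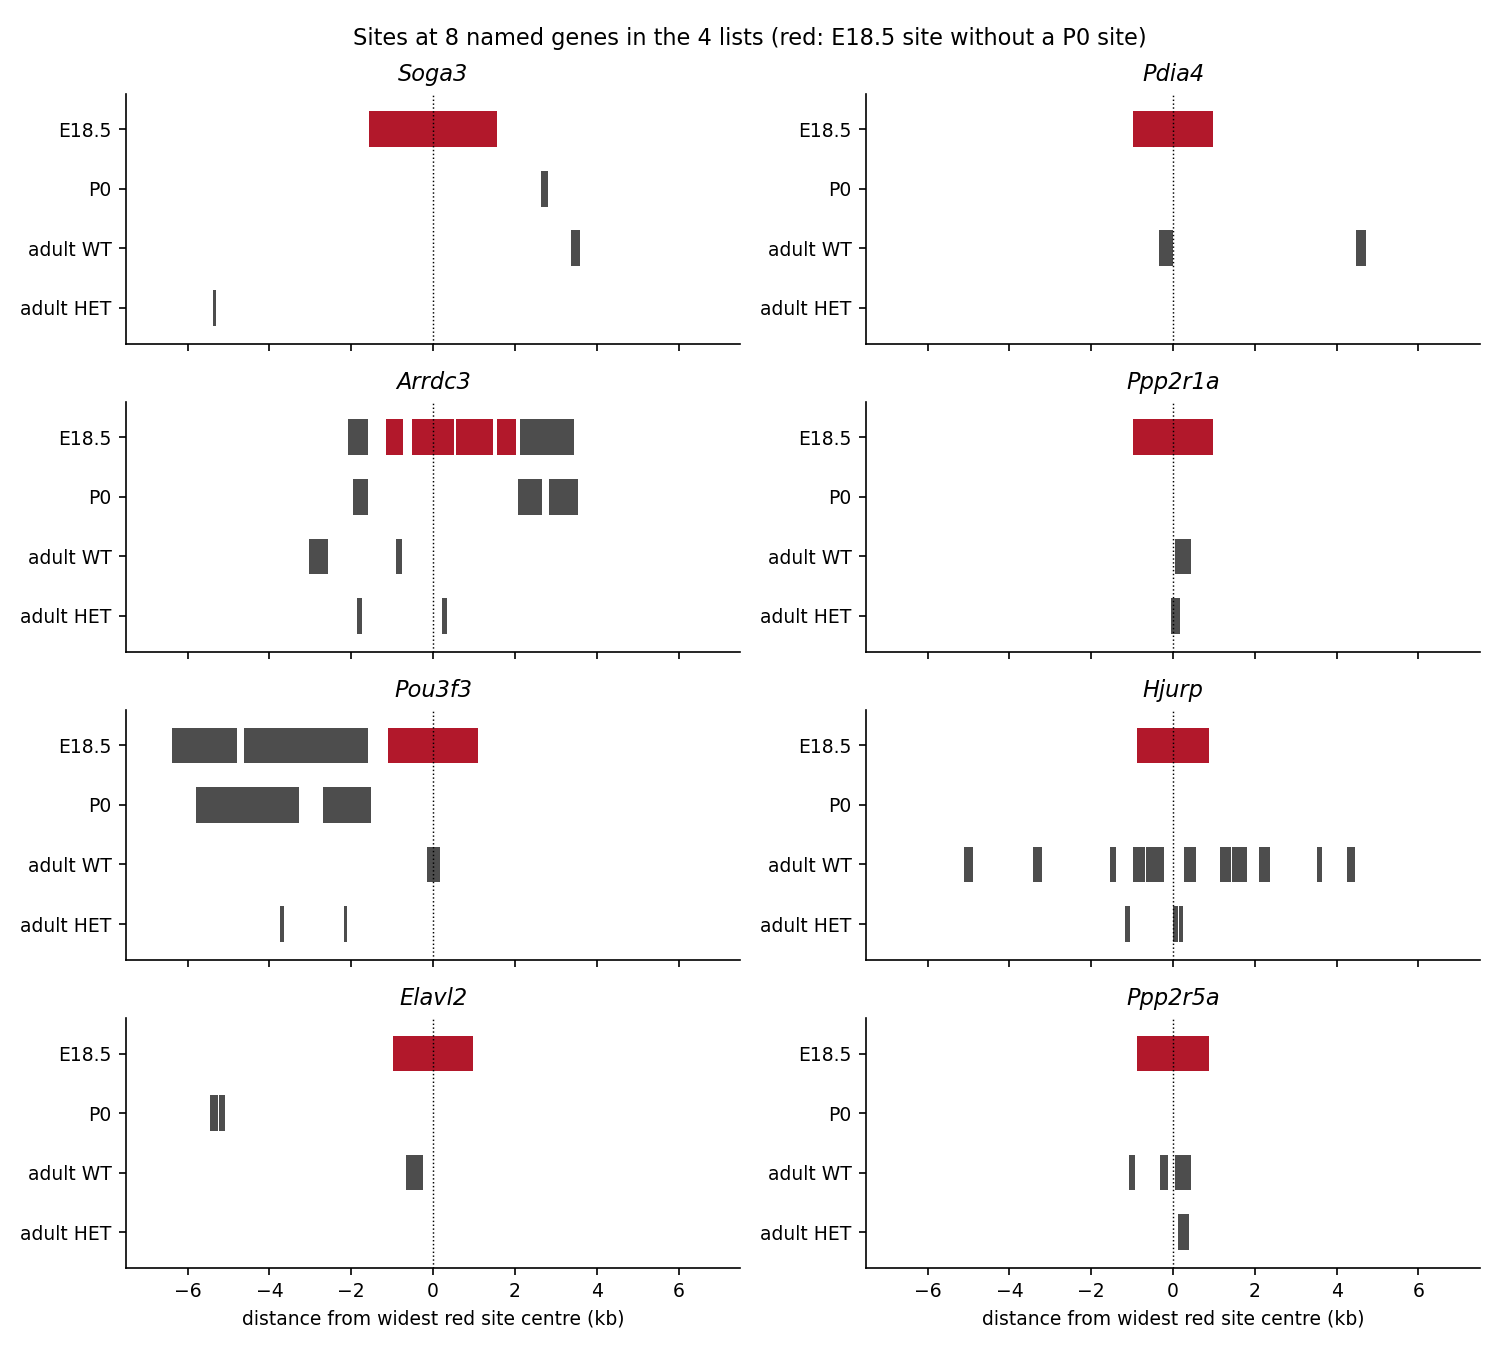
Sites of the 4 lists at 8 named genes, drawn to scale against the distance (kb) from the centre of the widest E18.5 site without a P0 site, with the direction of the gene to the right; red bars are E18.5 sites without a P0 site and grey bars all other sites within 5 kb of a start. Soga3, Arrdc3, Pou3f3 and Elavl2 have P0 sites beside the red bars, while Pdia4, Ppp2r1a, Hjurp and Ppp2r5a have none in range but carry adult WT sites inside them.

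The widest site of all, 3754 bp (chr1:137897794-137901547), lay in an intron of the noncoding gene Gm4258, 275.6 kb from Ptprc, the nearest protein-coding start. It was 74 bp from a P0 site and overlapped adult WT sites by 336 bp. The next, 3311 bp (chr13:23516539-23519849), spans the small RNA gene n-TStga1 12.9 kb from Hist1h4h, and it was the widest to overlap both adult lists, by 125 and 68 bp. A 2084-bp intergenic site 430.7 kb from Ccnh (chr13:84757683-84759766) was 21 bp from a P0 site and overlapped adult WT by 644 bp. Others of the widest in both adult lists lay at Hist3h2ba, a histone gene (1722 bp), Pde4d, a cAMP phosphodiesterase (1578 bp), the shared promoter of Nbr1 and Brca1 (1561 bp), Cnot3, of the CCR4-NOT deadenylase (1443 bp), and Per1, a clock gene (1300 bp, overlapped by 547 bp of adult WT and 513 bp of adult HET sites).

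In the Notch pathway, a known target of MYT1L repression, 3 of 35 genes had such a site and no P0 site within 5 kb. Of all protein-coding genes, 1.94% did. These counts are small, and whether MYT1L represses these 3 genes was not tested. Of 35 Notch genes, 4 carried a site without a P0 site within 5 kb (11.4%, against 4.1% of all protein-coding genes), and these were 4 of the 21 with any E18.5 site (19.05%, against 13.7%). The promoters of Hes6, a HES family member of differentiating neurons (601 bp, 13742 bp from a P0 site), Psen2, a gamma-secretase subunit (370 bp, 11985 bp) and Numbl, a Notch inhibitor (333 bp, 25053 bp) had no P0 site within 5 kb. The last, Hes7, a segmentation clock factor, had other E18.5 and P0 sites in range. None of the 4 sites overlapped an adult list. Of 61 Wnt genes, 1 carried such a site (1.64%, and 5.0% of those with any E18.5 site), Dvl2 (402 bp, 1174 bp from a P0 site). Of 32 BMP and TGF-beta genes none did.

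The progenitor and layer genes with such a site all had a P0 site within 5 kb of a start, as did 52.8% of the 900. Of 31 progenitor genes, 4 carried a site without a P0 site (12.9%, and 22.2% of those with any E18.5 site, against 4.1% and 13.7% overall). They were Lhx2 (1204 bp, in an intron), Neurog2, a proneural factor (1190 bp, over its coding exon), Pax6 (916 bp, in an intron) and Sox21 (489 bp, 3 bp from a P0 site). None overlapped an adult site. Of 27 genes of cortical excitatory layers, 4 carried one (14.8%, and 19.05% of those with any E18.5 site), among them Pou3f3, Etv1 (2 sites, 1832 bp) and Foxp1 (279 bp). Within 1 kb of a start, Neurog2 and Pou3f3 had no P0 site. Of 40 pan-neuronal genes there were 2 (5.0%), Elavl2 and Elavl4, and of 30 interneuron genes 2 (6.67%), Sox6 and Dlx6. Of 42 axon guidance genes 4 carried one (9.52%), among them the ephrin receptors Epha7 (1184 bp, 73 bp from a P0 site) and Epha4 and the plexin Plxnb1. Of these, Plxnb1 alone had no P0 site within 5 kb of a start.

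Cell cycle genes gave 2 of 40 (5.0%, near the 4.1% of all genes, and 7.41% of those with any E18.5 site, against 13.7%), both with no P0 site within 5 kb. Mcm4, a subunit of the replicative helicase, had an 895-bp promoter site 42645 bp from a P0 site, and Top2a, a topoisomerase of dividing cells, a 366-bp promoter site that an adult WT site covered over 320 bp. The protein-coding start nearest the Mcm4 site was that of Prkdc, 160 bp from its midpoint. Of 60 autism-associated genes, 6 carried a site without a P0 site, which is 15.4% of those with any E18.5 site, and Cul3 alone had no P0 site in range (437 bp, 48965 bp from one). The others included Sin3a, the corepressor scaffold that MYT1L recruits (1029 bp over the promoter, 149 bp from a P0 site, with 746 bp of adult WT overlap), Tcf4 and Foxp1. Of 41 chromatin regulators there were 4 (9.76%, and 17.4% of those with any E18.5 site), Sin3a, Suz12, Tet2 and Hdac4, each within 164 bp of a P0 site.

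Of 35 glutamate and GABA receptor genes, 1 carried a site without a P0 site, Grik5, with no P0 site in range. This is 2.86% of the list, and 12.5% of those with any E18.5 site, against 4.1% and 13.7% overall. Grik5 shares the site with Zfp574, and within 1 kb of a start no receptor gene carried one. Dusp6, a phosphatase of the ERK pathway, was the only one of 27 immediate early genes (3.70%, and 5.88% of those with any E18.5 site). Its promoter site of 1572 bp lay 112 bp from a P0 site. Replication-dependent histone genes had the highest share of any list when all genes of a list were counted, 14 of 67 (20.9%). Of those with any E18.5 site the share was 21.54% (14 of 65), against 13.7% for all protein-coding genes with one. Other lists, such as the interneuron (28.57%, 2 of 7) and progenitor (22.22%, 4 of 18) genes, were higher on that count, but on few genes. The 14 histone genes shared 6 sites, and each kept a P0 site within 5 kb. Ribosomal protein genes gave 9 of 89 (10.1%), but 13.4% of those with any E18.5 site, near the 13.7% overall. They lay at 8 promoter sites, of which those of Rps19, Rpl7a and Rps10 had no P0 site in range. The protein-coding start nearest the Rpl7a site was that of Med22, 98 bp from its midpoint. Zinc finger genes with Zfp symbols gave 14 of 397 (3.53%, and 7.57% of those with any E18.5 site, against 13.7%). Of these, 8 had no P0 site in range, such as Zfp839 and Zfp142.

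Lists of markers of other cell types were too small at E18.5 to set against the shares of 4.1% and 13.7%. Lists of 20 astrocyte, 22 microglial, 25 endothelial and mural, 40 muscle, 35 liver and pancreas, 35 epithelial, 35 mesenchymal and 33 blood genes held no gene with such a site, and neither did the lists of 15 AP-2 and neural crest factors, 57 clustered protocadherins and the 3 genes of the MYT family. Of 22 oligodendrocyte genes, Mog had 1 (1015 bp, intergenic), and of 1135 olfactory receptor genes Olfr459 had 1. The lists with no gene here had from 1 to 6 E18.5 targets of any kind, and within 10 kb of a start the muscle list held 1, Tnnc2. No list was tested, since lists and sites were both chosen with earlier results of these data known.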

How the data were processed

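MYT1L CUT&RUN was performed by the study on dissociated cortex, with MYT1L and IgG libraries. Reads were processed by the authors with the nf-core/cutandrun pipeline on mm10; for aligner, peak caller, threshold and IgG use, details were not given in the sources used here. What the authors deposited is 1 merged list of sites per MYT1L group, whose unit is a position in bp, with no score per site. Columns of other samples numbered 0. The 12 IgG libraries are not analysed here, and depth was unknown.

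Sites were used as deposited on 21 chromosomes, with GENCODE basic annotation (vM21) and GRCm38.p6 sequence. Midpoints were annotated as promoter, transcription end, exon, intron or intergenic. A site was called distal beyond 50 kb from a start and mostly repeat from 50% soft-masked bases. CpG islands were 200-bp windows or longer with GC of at least 0.5 and an observed to expected CpG ratio of at least 0.6. Pairs of shares were tested with the two-sided exact test of Fisher, with Newcombe intervals and Benjamini-Hochberg adjustment over 27 features; single shares carry exact (Clopper-Pearson) 95% intervals. Alternatives changed the gap, the overlap, width, GC or annotation strata, the promoter, the motif window and the target distance. The tests were tested on simulated data. Software was scipy 1.17.1, pandas 2.3.3 and numpy 2.4.6 under Python 3.11.15; figures were drawn with matplotlib 3.10.9. Members, words and gene lists were chosen with earlier results of these data known. Named genes were the 10 with the most bp in such sites within 5 kb, the same among genes with no P0 site, the 10 widest sites, the 10 widest in both adult lists, and list members; the farthest sites, those with the most copies of AAAGTT, runs and sites at the threshold were added after values were seen. The results of a few genes, gene lists and words are not reported here.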

Additional observations from a re-analysis of the deposited data

How the results depend on the processing

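Of 214 alternative values, 186 kept their side of the threshold (or stayed within 1.5 times for counts), and those with a call kept their direction. Some of the 186 without a call changed direction, such as promoters, with an odds ratio of 1.06 as reported and 0.876 over 1 kb from P0. A further 12 gained and 12 lost a call in the same direction. With a call before or after, 2 changed direction, and 2 counts moved. The number of sites was 1022 with over 5 kb to any P0 site and 2972 where P0 cover of under 50% of the site was required. The odds ratio for introns lost its call over 1 kb from P0 (0.906), with P0 cover under 50% (0.910), at 1 site per 10 kb (0.854), with a promoter of 2 kb up to 500 bp down (0.878) and with GC classes as strata (0.891). The odds ratio of intergenic sites gained one over 1 kb from P0 (1.31) and with GC classes (1.26), as did that of CpG islands (0.778 and 0.718), which turned to 1.42 among sites wider than the list median, where promoters gained a call (1.51) and CAGATG turned to 0.984. AAAGTT gained a call with P0 cover under 50% (0.848) and over the whole site (0.751). The GC strata for features other than words, the list without its longest run, and the promoter split were added after seeing the data; without the run, no call changed. The cause of these shifts was not tested. No paired analysis was possible because each list is merged over its libraries and carries no replicate numbers, and for the same reason no library could be left out in turn. Merged lists without depth or height limit every comparison of presence and absence: a site missing at P0 was not called there, which is not a measurement of no binding.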
